A study of Homo sapiens with 6 samples.

Results

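Regions of open chromatin found only in RS4;11 were examined in an ATAC-seq series of 3 B-lineage acute lymphoblastic leukemia lines. Peaks of all 12 deposited lists on chromosomes 1 to 22 were merged where they shared at least 1 bp. A merged region was a member when all 4 RS4;11 lists had a peak there and none of the 8 SEM and RCH lists did. This gave 2548 members of 126189 merged regions (2.02%), and of the 45088 regions with a peak in all 4 RS4;11 lists (5.65%). Each sample was 1 line with 1 shRNA and had 2 peak lists, read here as 2 libraries. The groups were RS4;11 (labelled RS411), SEM and RCH, each carrying either a non-targeted control shRNA (NT) or a knockdown shRNA against NSD2 (sh2), a histone H3 lysine 36 methyltransferase. Every sample used here thus carried an shRNA, and a single shRNA against NSD2 was used. RS4;11 and SEM carry the KMT2A-AFF1 fusion, and RCH is read here as the RCH-ACV of the growth protocol. Separate cultures for the 2 libraries are not stated in the labels, and with 1 sample per line and shRNA no test between lines was made.

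ATAC-seq reads out accessible DNA because the Tn5 transposase cuts and tags DNA that nucleosomes leave exposed. Promoters of widely used genes are open in most cell types, while distal elements such as enhancers differ most between cell types and between leukemias. Positions are given on the hg19 build. No gene names or sequences stand beside the regions, because no hg19 annotation or genome was used here. The labelled cell type could for the same reason not be checked against marker genes.

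RS4;11 had more line-only regions than the other lines. The mirrored rule gave 1221 regions open only in SEM, 0.968% of all merged regions and 3.32% of the 36732 regions in all 4 SEM lists. It gave 1146 open only in RCH, 0.908% and 4.21% of 27235. The RS4;11 lists were also the longest on average, with 59502 to 81527 autosomal peaks against 52301 to 62120 in SEM and 40506 to 55364 in RCH, and a longer list finds more regions that shorter lists miss. With every list cut to its 40506 peaks of highest fold, the counts were 1216 in RS4;11, 1074 in SEM and 1315 in RCH, so the lead of RS4;11 was not kept. Of those 1216 regions, 626 (51.5%) overlapped one of the 2548 members (24.6% of them). The cut can take away a member's own RS4;11 peaks. It can also make a region private when its SEM or RCH peaks fall below the limit. The part of each was not counted. Counting only peaks above the pooled median fold of 6.37 gave 2521, 573 and 212 regions in the same order of lines. All RS4;11 list medians (6.67 to 7.10) lay above this limit and all RCH medians (5.32 to 6.12) and both SEM NT medians (6.25 and 6.29) below it, so the limit took away a larger part of the RCH and SEM NT lists. Of these 2521 regions, 483 (19.2%) overlapped a member. The libraries of the lines also carry separate runs of library numbers in their peak names, so the line and anything that differed between these runs cannot be told apart.

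The members were narrow and weak beside other open regions of the same cells. Their median width was 409 bp (quartiles 332 to 516, range 219 to 1402), against 836 bp for the 20934 regions open in all 12 lists. Only 22 members (0.863%) exceeded 1 kb, against 32.8% of the regions open in all 12. A merged region grows with each list that contributes a peak, and a wide region has more room to meet a peak of another line, so the rule itself favours narrow members. All members together covered 1143 kb.

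Each peak's deposited value was taken as its fold enrichment over the background of its own library, and ranks were taken within a list. Where a list had several peaks in a region, the highest value was taken. One alternative above, the fold limit of 6.37, sets values of different lists against a single limit. In RS4;11 NT library 1 the members had a median fold of 6.63, with quartiles of 5.15 and 8.49 and a range from 1.98 to 19.5. In NT library 2 the median was 5.97, and in the sh2 libraries it was 5.68 and 5.72. Members thus lay at or below the middle of their lists, whose medians over all peaks were 6.67, 6.82, 7.10 and 7.06. Expressed as a percentile of fold within the list, the median member stood at 49.6 and 41.2 in the NT libraries and at 32.4 and 34.1 in the sh2 libraries. Regions open in all 12 lists stood at 78.8 to 82.2 in the same 4 lists. The NT and sh2 lists differ in length, so the lower percentile with sh2 shows no change in signal. Few members were among the strongest peaks: 52 and 29 reached the top 10% of the NT lists, and 9 reached it in each sh2 list. Regions open only in SEM had a median percentile of 36.6 to 51.9 in the SEM lists, and regions open only in RCH one of 41.1 to 56.1 in the RCH lists, against 32.4 to 49.6 for the members in theirs.

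Signal in RS4;11 rose step by step with the number of other lists that shared a region. Over the regions open in all 4 RS4;11 lists, the mean percentile of fold in RS4;11 had a median of 39.3 (quartiles 26.6 to 52.1) where no other list had a peak. It was 42.8 where 1 other list had one, 51.1 with 4 lists, 62.3 with 7 lists and 79.7 with all 8. The median width went from 409 bp over 411, 508.5 and 569 bp to 836 bp at the same steps. These values belong to the measure that chose the members and describe them only. A wider region can hold more peaks of a list, of which the highest was taken. The part of this in the rise was not tested. The plot of regions by the number of other lists shows both the counts and this gradient.

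**Figure D1:**
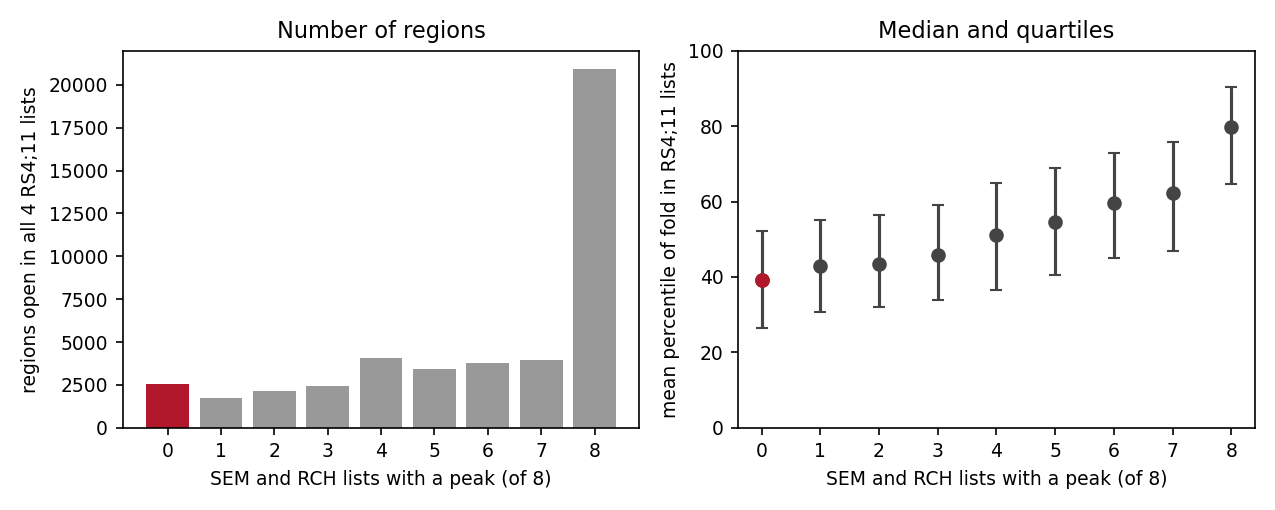
Regions open in all 4 RS4;11 lists, grouped by how many of the 8 SEM and RCH lists (horizontal axes) also had a peak; members are red. Left, the number of regions, with 2548 at 0 lists and 20934 at 8; right, the median (point) and quartiles (bars) of the mean percentile of fold in the RS4;11 lists, which climbs from 39.3 to 79.7.

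Just outside the rule stood 1767 regions with all 4 RS4;11 peaks and a peak in 1 other list, and 2125 regions with 3 of the 4 RS4;11 peaks and none elsewhere. The single other peak most often came from SEM sh2 library 1 (427 regions), SEM sh2 library 2 (342) or RCH NT library 2 (327), and least often from RCH sh2 library 2 (43). It was weak, with a median fold of 3.92 to 4.78 and a median percentile of 16.4 to 24.4 in those lists. Among the regions with 3 RS4;11 peaks, the missing list was sh2 library 1 in 873 cases, sh2 library 2 in 686, NT library 2 in 411 and NT library 1 in 155. The order of these numbers follows the length of the lists, and the longest RS4;11 list is the one that least often lacked the peak. Counting every region with a peak in at least 1 RS4;11 list and in no list of another line gave 26069, of which the members were 9.77%. A peak in a single NT library accounted for 47.2% of them and a peak in both NT libraries without sh2 for 14.4% (3744 regions), against 0.978% (255) for both sh2 libraries without NT.

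Rank correlations of folds between libraries were lower over members than over regions open everywhere. Spearman's rho over the 2548 members was 0.76 between the NT libraries, 0.68 between the sh2 libraries and 0.58 to 0.61 between an NT and an sh2 library. Over the 20934 regions open in all 12 lists it was 0.92, 0.91 and 0.87. These are correlations across sites that share their libraries. The spread of folds within a set also affects such a correlation, and its part was not tested.

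The 10 strongest members, ranked by the mean percentile of fold over the 4 RS4;11 lists, had means of 90.1 to 92.8 and lay on 9 chromosomes. The first, on chromosome 18 from 32579625 to 32580206 (582 bp), showed folds of 16.3 and 17.1 in the NT libraries and 16.1 and 12.8 in the sh2 libraries. The second, on chromosome 13 from 25246192 to 25246654, had 15.8 and 15.9 in the NT libraries, then 16.5 and 12.8 with sh2. The third, on chromosome 2 from 166787864 to 166788419, had 16.3 and 15.1 with NT and 14.3 and 14.5 with sh2. In each of these the lowest of the 4 values came from an sh2 library, and all values were above the list medians of 6.67 to 7.10. Folds are not normalized between lists, so the order of NT and sh2 shows no change in level.

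The fourth, on chromosome 5 from 16419761 to 16420310, showed folds of 18.4 and 16.3 with NT, then 14.4 and 12.4 in the sh2 libraries. The fifth, on chromosome 3 from 29267968 to 29268851, had 15.8 and 13.7 with NT and 14.4 and 15.2 with sh2. At 884 bp it was the widest of the 10, the others being 463 to 769 bp. The sixth, on chromosome 15 from 98678090 to 98678567, had 16.8 in each NT library and 11.9 and 14.97 with sh2, and 11.9 was the lowest of all values in this set. The seventh, on chromosome 1 from 173338327 to 173338897, had 16.5 and 13.9 with NT and 16.2 and 12.8 with sh2, with 1 high and 1 lower library under each shRNA.

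The remaining members of this set were on chromosomes 21, 6 and 3. On chromosome 21, the peak from 30854900 to 30855385 reached 17.0 and 13.9 with NT, then 15.1 and 13.1 with sh2. On chromosome 6, the peak from 27924999 to 27925767 reached 14.5 and 15.05 with NT, then 13.8 and 14.2 with sh2, the tightest set of 4 values. On chromosome 3, the peak from 113284256 to 113285015 reached 16.3 and 14.6 with NT, then 14.2 and 12.4 with sh2. Most of the 10 stood apart from the open chromatin of the other lines: 7 lay more than 10 kb from the nearest region with an SEM or RCH peak, while 65.2% of all members had one within 10 kb. That region lay 0.861 kb from the chromosome 13 region, 4.34 kb from the chromosome 21 region and 5.77 kb from the chromosome 18 region, and 10.8 to 53.7 kb from the other 7. The chromosome 6 and chromosome 2 regions had a region open in all 12 lists as their nearest SEM or RCH neighbour, at 53.7 and 21.4 kb.

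**Figure D2:**
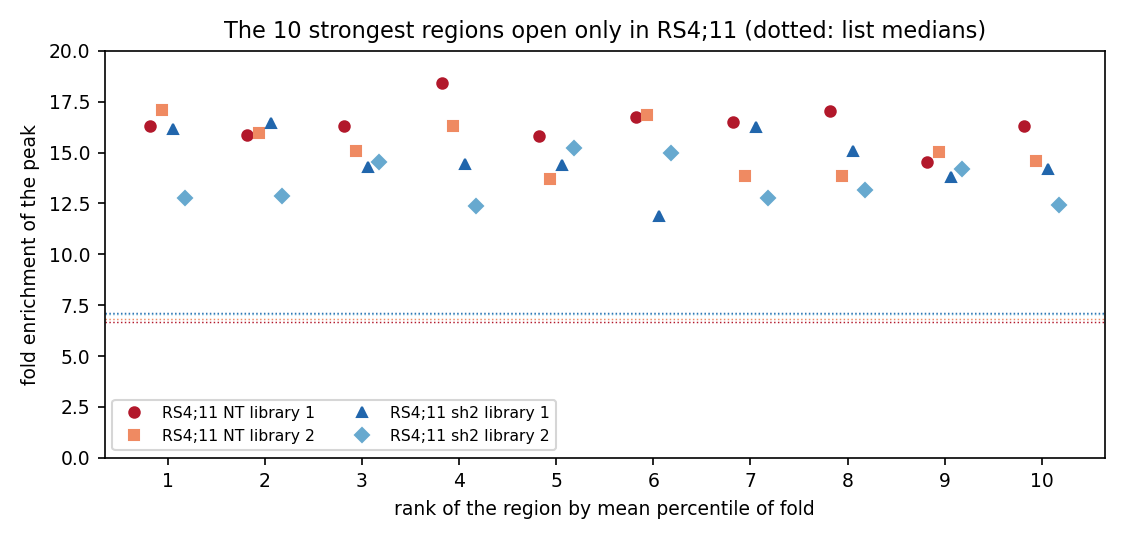
Fold enrichment (vertical axis, the authors' value per peak) of the 10 strongest members (horizontal axis, ranked by mean percentile of fold) in the 4 RS4;11 libraries; dotted lines are the medians of all peaks in each list. All points lie between 11.9 and 18.4, above the list medians of 6.67 to 7.10.

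Whether line-only regions recur under the other shRNA was examined by choosing on the NT lists and reading the sh2 lists. The regions were those merged over all lists, so sh2 peaks helped to set their borders. A wide sh2 peak can also join NT peaks of different lines and so take a region out of the choice. The lists that were read were thus not fully held out, here or in the other readings below. Both RS4;11 NT lists and none of the 4 SEM and RCH NT lists had a peak at 10883 regions, 17.9% of the 60642 regions in both RS4;11 NT lists. In RS4;11 sh2 library 1, 47.3% of them had a peak (exact 95% binomial interval 46.3 to 48.2), and in library 2, 49.98% (49.0 to 50.9). In the SEM sh2 libraries the share was 18.0% and 16.8%, and in the RCH sh2 libraries 3.21% and 2.47%. For all regions in both RS4;11 NT lists the shares were 79.1% and 80.4% in RS4;11, 70.1% and 69.0% in SEM and 50.3% and 47.4% in RCH. For the chosen regions, every RS4;11 sh2 library was above every SEM and RCH sh2 library. All regions in both RS4;11 NT lists gave the same order, so it was not particular to the chosen regions. They recurred less often than RS4;11 regions in general: 38.5% were in both RS4;11 sh2 lists, against 74.4% of all regions in both NT lists, and 41.2% were in neither, against 14.8%. The 38.5% was 21.6% with RS4;11 NT library 2 left out of the choice. A peak in any SEM or RCH sh2 list was found at 27.9%, against 79.6%. The intervals cover counting error only, since regions are not replicates.

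Recurrence depended on the strength of the NT peak. Where the mean NT percentile was under 25, 21.0% of 3405 chosen regions were in both sh2 lists. The share was 34.6% of 4753 regions from 25 to 50, 62.9% of 2199 from 50 to 75 and 84.4% of 526 (interval 81.0 to 87.4) from 75. Over all regions in both NT lists the shares at these strengths were 35.8%, 54.9%, 83.9% and 97.4%. Chosen regions thus recurred less often than regions in general at each strength, and most of them had a percentile under 50. Of the chosen regions from percentile 75, 42.8% had a peak in an SEM or RCH sh2 list, against 20.7% of those under 25. This share was not taken by strength over all regions in both NT lists. The rise is therefore not shown to be particular to chosen regions.

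Choosing on the sh2 lists and reading the NT lists gave 5432 regions, 11.2% of 48535. Of these, 78.7% were in both RS4;11 NT lists, against 92.9% of all regions in both sh2 lists. The share with a peak was 89.7% and 82.7% in the RS4;11 NT libraries, 11.3% and 11.0% in SEM and 17.8% and 20.2% in RCH. A peak in any SEM or RCH NT list was found at 37.98%, against 88.8%. RS4;11 was again above both other lines, but RCH now stood above SEM. Over all regions in both RS4;11 sh2 lists, RS4;11 was also above the other lines, at 96.9% and 94.3%. SEM stood there at 73.4% and 73.0%, and RCH at 68.9% and 73.1%. The NT lists of RS4;11 are longer than its sh2 lists, and those of SEM shorter, so the 2 readings differ in the chance of finding a peak.

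The same exercise for the other lines gave a like picture. By the NT lists, 2766 regions were open only in SEM (6.6% of 41892) and 3582 only in RCH (8.78% of 40792). Both sh2 lists of the line held 58.5% of the SEM regions, against 87.7% of all regions in both SEM NT lists, and 37.5% of the RCH regions, against 66.8%. An sh2 list of another line held 25.3%, against 89.4%, and 13.1%, against 88%. By the sh2 lists, 6960 regions were open only in SEM (14.3% of 48822) and 2429 only in RCH (7.88% of 30824). Both NT lists of the line held 37.3% of the SEM regions, against 75.2%, and 62.7% of the RCH regions, against 88.4%. An NT list of another line held 40.0%, against 89.7%, and 24.7%, against 92.8%. Line-only regions in all 3 lines were thus found again less often than other regions of the line.

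**Figure D3:**
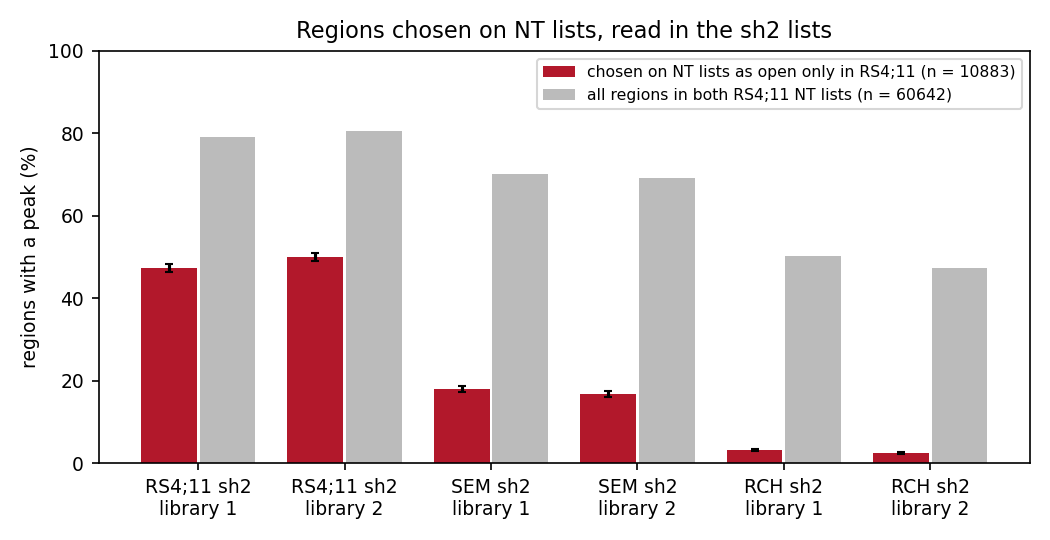
Share of regions with a peak (vertical axis, %) in each sh2 library for the 10883 regions chosen on NT lists as open only in RS4;11 (red, with exact 95% binomial intervals) and for all 60642 regions in both RS4;11 NT lists (grey). The chosen regions reach 47.3% and 49.98% in RS4;11 and at most 18.0% in the other lines.

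The members were unevenly spread over chromosomes. Chromosome 13 held 176 of its 1498 RS4;11 regions as members, or 11.7% (exact 95% binomial interval 10.2 to 13.5), and chromosome 18 held 118 of 1356, or 8.70% (7.26 to 10.3). Chromosome 3 was next with 209 of 3215, or 6.501% (5.67 to 7.41), and all autosomes together gave 5.65%. At the low end, 10 of 1206 regions were members on chromosome 19 (0.829%, interval 0.398 to 1.52), 25 of 1380 on chromosome 17 (1.81%) and 51 of 1400 on chromosome 16 (3.64%). The low shares were 1.32% on chromosome 19 without RS4;11 NT library 2 and 2.90% on chromosome 17 without RS4;11 sh2 library 1. With the higher folds they were 1.84% and 3.59%, against 9.20% over all autosomes. Chromosome 13 is poor in genes and chromosomes 17 and 19 are rich in them. Chromosome 4, also poor in genes, gave 6.04% by the main rule, near the share of all autosomes. Chosen on the NT lists alone it gave 23.78%, against 17.9% over all autosomes. With lists of equal length it gave 4.42%, against 4.13%. A link to gene density was not tested. Without chromosomes 13 and 18 the share was 5.34%, and none of the remaining 20 chromosomes exceeded 6.501%.

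The line-only regions of the other lines did not peak on chromosomes 13 and 18. On chromosome 13, 3.43% of SEM regions were open only in SEM and 4.89% of RCH regions only in RCH, against 3.32% and 4.21% over all autosomes. Chromosome 18 gave 3.21% and 3.93%. On chromosome 19 the shares were 2.95% and 5.07%, where RS4;11 had its lowest. The highest line-only share of RCH was on chromosome 7 (6.51%) and that of SEM on chromosome 6 (4.25%). With lists of equal length, chromosome 13 gave 7.68% in RS4;11, 3.06% in SEM and 7.44% in RCH, against 4.13%, 3.99% and 5.45% over all autosomes. The shares of RS4;11 and RCH were then close on this chromosome, but RS4;11 stood farther above its own autosome share.

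**Figure D4:**
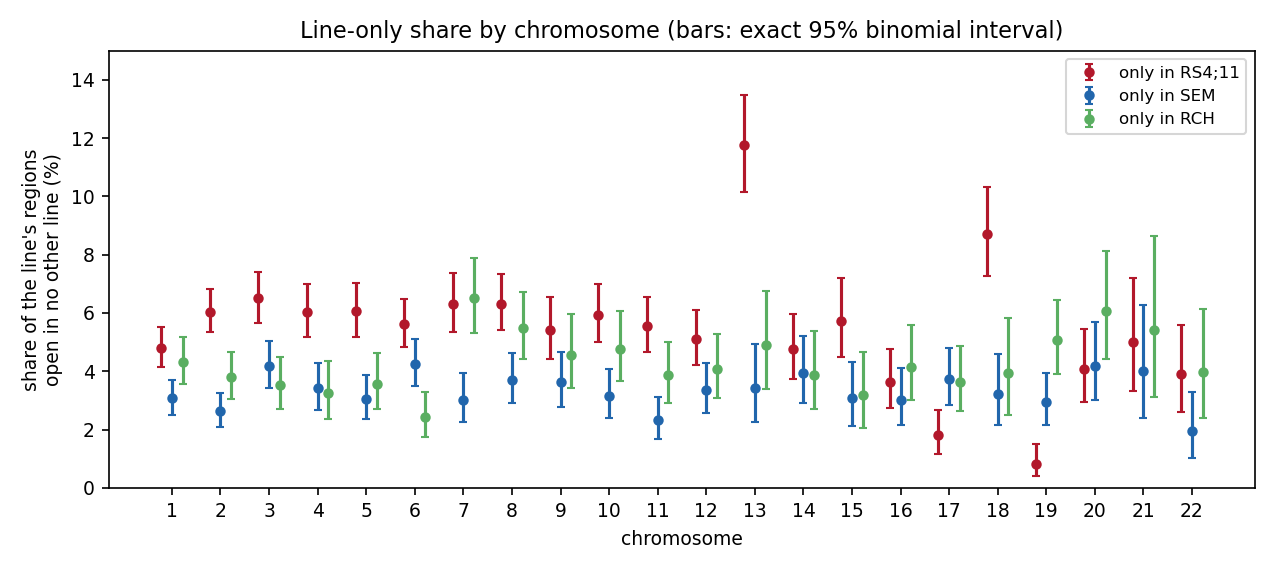
Share of a line's regions (peak in all 4 of its lists) that were open in no other line (vertical axis, %), by chromosome (horizontal axis), with exact 95% binomial intervals. For RS4;11 (red), chromosome 13 stands at 11.7% and chromosome 18 at 8.70%, and chromosome 19 is lowest at 0.829%.

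Chromosome 13 ranked first for RS4;11 in the 5 ways of choosing for which all chromosomes were ranked: the rule itself and the 4 that follow. By the NT lists alone 30.1% of its regions were private to RS4;11, against 17.9% over all autosomes, and by the sh2 lists alone 19.8% against 11.2%. With only peaks above the pooled median fold it was 15.2% against 9.20%. Chromosome 18 was second by the sh2 lists (15.5%), with equal lists (6.24%) and with the higher folds (13.9%), and just behind chromosome 4 by the NT lists (23.77% and 23.78%). Chromosome 19 was last in all of these. The 5 ways reuse the same lists, and every member is also chosen by the NT lists alone and by the sh2 lists alone. The repeated ranks are thus not separate evidence. In stretches of 5 Mb with at least 20 RS4;11 regions, all 19 stretches of chromosome 13 lay above the autosome share, from 8.33% to 17.3%. On chromosome 18, 13 of 15 stretches did, from 3.26% to 16.1%. The higher share on chromosome 13 was thus found all along the stretches examined.

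The higher share on chromosome 13 was seen at regions of like signal. At a mean RS4;11 percentile under 25, 33.6% of 116 regions on chromosome 13 were members (interval 25.1 to 43.0), against 17.7% on the autosomes other than 13 and 18 (16.3 to 19.1). From 25 to 50 it was 25.8% of 349 (21.3 to 30.7) against 10.9%, and from 50 to 75 it was 8.26% of 484 (5.97 to 11.1) against 3.802%. Above 75 it was 1.28% of 549 (0.514 to 2.61) against 0.691%, where the intervals overlap. Chromosome 18 gave 21.6%, 20.4%, 5.59% and 0.634% in the same ranges.

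Both other lines were called open less often at RS4;11 regions of chromosome 13. No SEM list had a peak at 21.0% of them, against 10.4% over all autosomes, and no RCH list at 24.8%, against 16.7%. On chromosome 18 these shares were 14.4% for SEM and 24.4% for RCH. The reverse was not seen: of the SEM regions on chromosome 13, 5.58% had no RS4;11 peak, against 6.33% over all autosomes, and of the RCH regions 6.90%, against 6.94%. The share of a list's peaks on chromosome 13 was 3.27% to 3.57% in RS4;11, 2.06% to 2.50% in SEM and 2.42% to 2.99% in RCH. At the 478 regions of chromosome 13 open in all 12 lists, the median log2 fold relative to the list's own median over such regions was 0.19 to 0.21 in RS4;11, -0.02 to 0.08 in SEM and 0.07 to 0.16 in RCH. RS4;11 was thus highest on chromosome 13 in both measures, with no overlap with the other lines. The peak shares include the members, while the folds come from regions that are not members. On chromosome 18 the peak shares were 2.92% to 3.08%, 2.47% to 2.69% and 2.10% to 2.60%, and the relative log2 folds were 0.08 to 0.18, -0.02 to 0.08 and -0.10 to 0.08, where the folds of RS4;11 met those of the other lines at their low end. On chromosome 19 RS4;11 was lowest, with log2 folds of -0.39 to -0.22 and peak shares of 2.07% to 2.86%, against -0.20 to 0.13 and 3.09% to 4.89% in RCH and -0.09 to 0.06 and 3.09% to 3.89% in SEM. DNA copy number was not analysed here. The part of these chromosome-wide differences in the members' spread was not tested.

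The regions chosen on lists of 1 shRNA were also read by chromosome. Of 640 such regions on chromosome 13, 52.3% had a peak in each RS4;11 sh2 library, against 46.9% and 49.6% on the autosomes other than 13 and 18. SEM sh2 libraries had a peak at 13.75% of them in either library, against 18.3% and 16.9%, and RCH sh2 libraries at 1.72% and 1.09%, against 3.33% and 2.57%. In the reverse reading, 313 regions of chromosome 13 chosen on sh2 lists had a peak in 93.9% and 88.2% of cases in the RS4;11 NT libraries, against 89.3% and 82.1% elsewhere. SEM NT libraries had one at 6.71% and 5.75%, against 11.7% and 11.4%, and RCH NT libraries at 17.3% and 19.8%, against 17.9% and 20.2%. The lower share in the other lines on chromosome 13 was thus seen in SEM in both readings, while RCH was close to its share elsewhere in the second. These shares were not taken over all RS4;11 regions of chromosome 13. The lower share is therefore not shown to be particular to the chosen regions.

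Position relative to other open chromatin was then described. Members lay a median of 33.6 kb (95% interval of the median 31.5 to 36.6) from the nearest region open in all 12 lists. This distance depends on how open regions are counted and was 49.2 kb with equal lists, 80.9 kb with higher folds and 73.3 kb with peaks covering 50% of a region. Other RS4;11 regions, open in all 4 lists but not in all 12 and not members, lay at 31.1 kb, and regions open only in SEM and only in RCH at 40.7 kb each. Of the members, 22.4% were within 10 kb, 55.9% between 10 and 100 kb and 21.7% beyond 100 kb. The share of regions that were members hardly varied with this distance: 10.1% of 5672 regions up to 10 kb (9.31 to 10.9), 10.6% of 13412 up to 100 kb (10.1 to 11.2) and 10.9% of 5070 beyond (10.0 to 11.8), with regions open in all 12 lists set aside. On chromosome 13 the shares in these classes were 20.6%, 17.9% and 13.4%, and on chromosome 19 2.91%, 3.54% and 14.3%, the last of only 21 regions. Chromosome 13 thus stood above all autosomes most clearly up to 100 kb. Beyond 100 kb its 13.4% (of 268 regions) was below that of chromosome 3 (14.4% of 438) and chromosome 17 (16.4% of only 55). By chromosome, members were farther than other RS4;11 regions on 15 of 22 chromosomes and nearer on 7, among them chromosome 13 (31.9 against 45.3 kb).

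**Figure D5:**
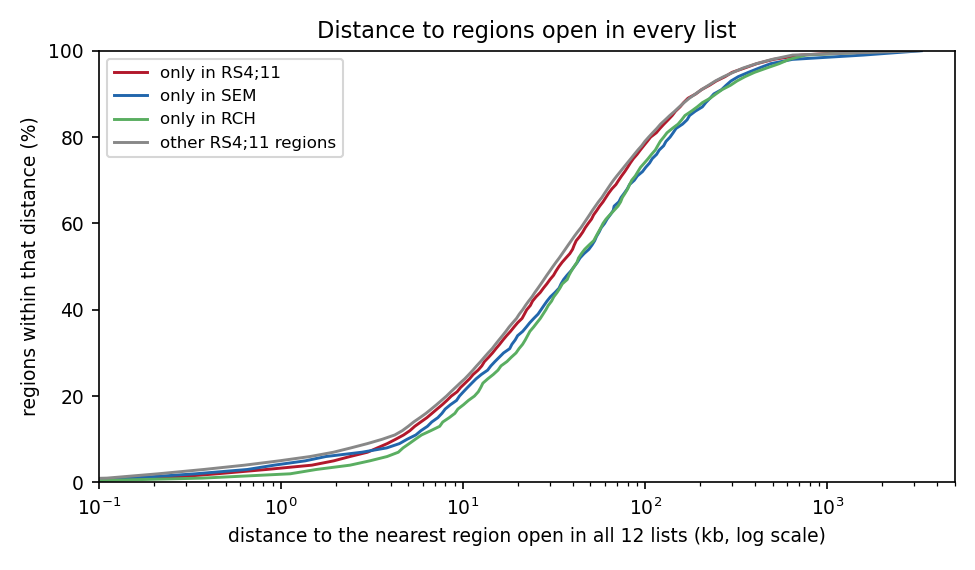
Share of regions (vertical axis, %) within a given distance (horizontal axis, kb, log scale) of the nearest region open in all 12 lists, for regions open only in RS4;11, only in SEM and only in RCH and for other RS4;11 regions. The curve of the members (median 33.6 kb) runs close to that of other RS4;11 regions (31.1 kb), and those of SEM and RCH (40.7 kb each) lie to the right.

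The nearest region with an SEM or RCH peak was a median of 5.82 kb away (quartiles 1.91 to 13.9), and 16.1% of members had one within 1 kb. Many members thus lay within several kb of an SEM or RCH peak. This distance was not taken for any other set of regions. The closeness is therefore not shown to be particular to members. Requiring no SEM or RCH peak within 1 kb left 2145 members. The nearest other member was a median of 199 kb away (quartiles 45.4 to 551).

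Members stood next to other members more often than their share along the row of RS4;11 regions. Of the RS4;11 regions next to a member on either side, 10.4% were members too, against 6.19% from the share of each member's chromosome. The same was found for regions open only in SEM (6.96% against 3.42%) and only in RCH (13.1% against 4.42%). Chains of members no more than 10 kb apart numbered 116 and held 245 members (9.62%), 11 of them with at least 3 members. Leaving out RS4;11 sh2 library 1 gave 183 chains, equal lists 29 and higher folds 69. SEM had 29 chains and RCH 39, among fewer regions. Chains were short in all lines, with at most 4 regions in RS4;11 and SEM and 3 in RCH.

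A pair of chains had 4 members. The first spanned chromosome 3 from 17980128 to 17990918 (10.8 kb), with 4 members of 441 to 891 bp. Its folds were 5.31 to 7.20 in NT library 1, 4.53 to 6.63 in NT library 2, 4.84 to 5.61 in sh2 library 1 and 4.43 to 4.78 in sh2 library 2. The second spanned chromosome 13 from 37453345 to 37466873 (13.5 kb) and was led by the region from 37453345 to 37453808, with folds of 7.69, 8.11, 9.14 and 8.28. Neither span held a peak of another line. The 4 peaks of the first chain were alike in height, while in the second the leading region had more than the other 3, which reached at most 5.71.

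The next 3 chains had 3 members each. On chromosome 2 from 5834494 to 5840418 the leading region, from 5834494 to 5834801, had folds of 13.3 and 11.2 with NT and 12.5 and 10.5 with sh2, and the others had 5.13 to 8.75. This span also held 1 region with a peak of another line. On chromosome 15 from 99595458 to 99607701 the folds ran from 6.65 to 11.9, and 1 region open in all 12 lists lay between the members. On chromosome 3 from 151791075 to 151803162 the leading region, from 151802515 to 151803162, had 11.7 and 11.5 with NT and 10.3 and 9.45 with sh2, and no peak of another line lay in the span. Each of the 3 leading regions was higher than its companions in all 4 libraries except on chromosome 15, where the order changed between libraries.

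At the scale of 1 Mb, 1380 of the 2684 bins with an RS4;11 region held a member, 708 held exactly 1 and 49 held at least 5. The bin at 20 to 21 Mb of chromosome 11 had the most, with 10 members among 33 RS4;11 regions (30.3%), 6 regions open in all 12 lists and 2 open only in SEM. Its members were weak, with folds of 3.37 to 8.41, and with lists of equal length 3 were left. On chromosome 13 the 1 Mb bin from 100 Mb had 9 members among 39 RS4;11 regions and the bin at 51 to 52 Mb had 9 among 37, with folds up to 14.9 and 15.2. Neither of these held a region open only in SEM or only in RCH. They held just 19 and 12 SEM regions and 14 and 12 RCH regions. Over all autosomes 3.32% of SEM and 4.21% of RCH regions were line-only, so this lack says little. With equal lists they kept 6 and 4 members.

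The longest members were not the strongest. The longest, on chromosome 9 from 29219865 to 29221266 (1402 bp), had folds of 9.19 and 7.93 with NT and 6.56 and 5.65 with sh2. On chromosome 13 from 61684785 to 61686102 (1318 bp) the folds were 7.89 and 7.62 with NT and 5.38 and 4.43 with sh2. On chromosome 9 from 8628001 to 8629253 (1253 bp) they were 9.56 and 9.23 with NT and 5.16 and 5.90 with sh2. In each of these, both sh2 folds were below both NT folds, although folds are not normalized between lists and the difference carries no test. The first and the second lay 718 and 713 kb from the nearest region open in all 12 lists, the third 19.8 kb.

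The most isolated members were those farthest from any other region of any list. On chromosome 22 from 48237665 to 48238231 a member stood 203 kb from its nearest neighbour, with folds of 10.4 and 10.6 with NT and 9.44 and 9.15 with sh2. On chromosome 12 from 115312787 to 115313715 a member stood 124 kb away, and its folds were 9.07 and 8.44 in the NT and 9.82 and 13.3 in the sh2 libraries. On chromosome 15 from 29744890 to 29745822 a member stood 115 kb away, and its folds were 6.94 and 8.44 under NT, then 4.26 and 6.21 under sh2. The chromosome 22 and chromosome 12 members lay above the median of members in all 4 libraries, while the chromosome 15 member was below it in sh2 library 1.

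Members lie by definition between the peaks of the other lines, and a small number lay in long gaps. Stretches of more than 500 kb without any SEM peak contained 23 of the 2548 members, and such stretches without any RCH peak contained 9. The longest SEM stretch with a member spanned the centromere of chromosome 21 from 11186786 to 15352364, and the longest RCH stretch that of chromosome 5 from 46101840 to 49725674, each with 1 member. No single stretch without SEM or RCH peaks held more than 5 members.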

How the data were processed

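Reads were aligned with Bowtie2 and peaks were called with MACS2 on hg19, per the submitters' processing notes. Tool versions, settings and read totals were not found in the labels, and depth is unknown. Each deposited list gives chromosome, start, end, name and 1 value per peak, called per library as far as the lists show. The deposited value was read as a fold enrichment (a ratio to background), inferred from its range of 1.60 to 44.2. It is not normalized between lists.

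The 12 lists held 695442 peaks on chromosomes 1 to 22 and 23490 others were left out. Peaks sharing at least 1 bp were merged, which was checked with bedtools 2.31.1, and the rule was tested on simulated lists. Percentiles rank folds within a list. The members, the rule and the measures were chosen with earlier results of these data known. Regions were named as the 10 highest by mean percentile, the 5 chains (gaps up to 10 kb) with most members, the 3 longest, the 3 most isolated, the 3 fullest 1 Mb bins and the 3 highest and 3 lowest chromosomes. Intervals are exact binomial (Clopper-Pearson) at 95%, cover counting error only, and that of a median uses order statistics. Planned motif and gene lists were not used here. Alternatives were equal lists, a higher fold, 50% cover, 1 kb distance, chromosome X and leaving out each library. Choosing by NT or sh2 lists alone for the chromosome shares was added after the data were seen. Scripts ran on Python 3.11.15 with pandas 2.3.3, numpy 2.4.6, matplotlib 3.10.9 and scipy 1.17.1.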

Additional observations from a re-analysis of the deposited data

Results flagged for a closer look

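The number of regions private to a line moved in different directions between NT and sh2. By the NT lists 10883 regions were open only in RS4;11, 2766 only in SEM and 3582 only in RCH, and by the sh2 lists 5432, 6960 and 2429. As log2 of sh2 over NT this came to -1.0 for RS4;11, 1.33 for SEM and -0.56 for RCH. With 1 sample per line and shRNA, this difference was not tested. The number of peaks per list moves the same way, and its part in these ratios was not tested.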

How the results depend on the processing

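With lists of equal length, 1216 regions were open only in RS4;11. With folds above the pooled median, 573 were open only in SEM and 212 only in RCH. With equal lists, higher folds and 50% cover in turn, the NT-chosen regions in both RS4;11 sh2 lists became 51.3%, 48.1% and 36.8%, chromosome 13 became 7.68%, 15.2% and 16.2%, and the distance to regions open in every list became 49.2, 80.9 and 73.3 kb. That distance was 37.2 kb with no other peak within 1 kb. NT-chosen regions met in an SEM or RCH sh2 list became 25.1% and 26.2% with equal lists and higher folds. Those chosen on sh2 lists were in both NT lists in 64.1% and 76.6%, and in an SEM or RCH NT list in 40.3% with equal lists. The cause of these shifts was not tested. Leaving out each of the 12 libraries gave 2592 to 3428 RS4;11-only, 1262 to 1747 SEM-only and 1164 to 1526 RCH-only regions, 11.9% to 14.2% on chromosome 13 and 29.9 to 36.7 kb. The share in both RS4;11 sh2 lists was 21.6% without NT library 2 and 50.005% without sh2 library 1, and 56.2% to 89.6% in the reverse reading, lowest without sh2 library 1. The shares in other lines were 20.3% to 33.2% and 30.6% to 44.8%, and 20.3% was found without SEM sh2 library 1. With 1 library left, fewer lists have to agree. Chains numbered 183 without RS4;11 sh2 library 1, 29 with equal lists and 69 with higher folds. Of the 10 strongest members, 9 stayed members with 50% cover and 9 with the 1 kb distance. The 3 longest were not members with equal lists or higher folds. Of 425 comparisons for single regions, bins, chains and chromosomes, 35 moved. Many of the others could not move, since leaving out a library or adding chromosome X cannot end a region's membership. The titles pair NT with sh2 within each line, but with 1 sample per line and shRNA no paired test was made. They carry no replicate numbers.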
